A study of Mus musculus with 14 samples.

Results

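The Bcl2 family genes described here are 10 of the 24421 genes in a messenger RNA survey of mouse gastric tumours. They were taken by symbol: the prosurvival genes Bcl2, Bcl2l1, Bcl2l2 and Mcl1, the effector Bak1, and the BH3-only genes Bcl2l11, Bad, Bid, Bmf and Pmaip1. All 10 passed the filter on low counts in every comparison, with 167 to 10715 counts per library. The tumours grew from transplants placed subcutaneously, that is under the skin, or orthotopically, in the organ itself. The 12 bulk libraries came in groups of 3, with TM, TMP and TMPC tumours at the subcutaneous site and TMPC tumours also at the orthotopic one. The alleles behind TM, TMP and TMPC are not spelled out in the labels, nor are strain, age or treatment, so these stand as names only. Tissue of about 1 cm3 was taken 2 months after transplantation. Whether each replicate was its own animal is not said, and the p-values cover no more than the library-to-library spread, possibly a technical one.

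The Bcl2 family controls the mitochondrial route of apoptosis. Prosurvival members hold the effectors Bak1 and Bax in check, BH3-only proteins carry stress signals that release them, and active effectors open the outer mitochondrial membrane so that cytochrome c can start the caspase cascade. In gut epithelium the family helps to set how readily cells die after damage or loss of attachment, and many tumours raise a prosurvival member.

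Total counts per library ranged from 16584781 to 21107310. Markers of epithelium were present in every library, but TM replicate 2 stood apart from all others. Its summed epithelial markers reached 257 CPM (counts scaled to a common library size with TMM factors), against 1029 to 7269 in the other 11 libraries. Its B and plasma cell markers summed to 3246 CPM, against 0.717 to 29.9 elsewhere, and its mean correlation with its own group was 0.776, against 0.880 and 0.874 for its partners. It also had 0 counts over 4 Y-linked genes, against 2179 and 2303 in its partners and 493 to 5420 in the other groups. Xist stood at 189 to 1435 CPM in the TM libraries and 0.109 to 13.4 CPM in the other 9. Xist thus differed along with tumour type, and they cannot be told apart in the comparisons with TM. Orthotopic replicate 3 held liver markers at 7425 CPM, against 46.4 and 41.0 in its partners. In bulk tissue, fewer cells of a type and less RNA per cell cannot be told apart.

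The stretches just upstream of the 4 prosurvival genes are shown first, because 3 of these genes, Bcl2, Bcl2l1 and Bcl2l2, were called in the comparison of TMPC with TM described further on, a comparison in which 35.8% of all genes were called. They are RefSeq sequences on GRCm38.p6, read 5′ to 3′ along the gene's strand, of up to 250 bases ending at a start site and cut where an annotated exon begins. Capitals mark matches to a searched motif on either strand, and every match in these stretches was a GC box.
Bcl2, chr1:106714291-106714540, minus strand: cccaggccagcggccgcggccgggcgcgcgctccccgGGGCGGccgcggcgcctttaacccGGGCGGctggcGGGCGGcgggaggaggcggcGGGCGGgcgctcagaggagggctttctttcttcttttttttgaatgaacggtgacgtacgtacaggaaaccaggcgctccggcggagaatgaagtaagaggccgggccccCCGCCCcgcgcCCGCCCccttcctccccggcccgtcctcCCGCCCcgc
Bcl2l1, chr2:152831729-152831978, minus strand: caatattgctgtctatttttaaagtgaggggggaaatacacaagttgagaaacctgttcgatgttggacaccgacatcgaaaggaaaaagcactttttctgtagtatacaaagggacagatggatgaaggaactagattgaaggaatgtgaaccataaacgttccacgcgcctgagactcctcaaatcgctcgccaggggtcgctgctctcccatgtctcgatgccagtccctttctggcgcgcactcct
Bcl2l2, chr14:54883175-54883376, plus strand: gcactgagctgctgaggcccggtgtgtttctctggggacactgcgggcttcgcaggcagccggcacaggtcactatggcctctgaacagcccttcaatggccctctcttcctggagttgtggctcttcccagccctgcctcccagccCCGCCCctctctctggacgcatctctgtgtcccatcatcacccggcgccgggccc
Mcl1, chr3:95658471-95658720, plus strand: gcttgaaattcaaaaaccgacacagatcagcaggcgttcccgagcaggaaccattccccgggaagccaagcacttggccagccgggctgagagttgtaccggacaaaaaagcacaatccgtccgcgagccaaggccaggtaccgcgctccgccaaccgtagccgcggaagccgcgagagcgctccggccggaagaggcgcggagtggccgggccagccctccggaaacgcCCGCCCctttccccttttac

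The Bcl2 stretch held 7 GC boxes (GGGCGG) in 250 bases that were 74.8% G or C, the Bcl2l2 and Mcl1 stretches held 1 each, and the Bcl2l1 stretch held none. A GC box, a short element bound by Sp-family factors, stood in 32.7% of 32851 upstream stretches of 250 bases. The other letters searched were the E-box CACGTG (6.02% of stretches), CCAAT (33.8%), the E2F motif TTTCGCGC (0.256%), the AP-1 motif TGANTCA (6.75%), the STAT motif TTCNNNGAA (7.02%), the forkhead motif GTAAACA (3.17%) and the CRE TGACGTCA (1.55%). Of these only the E2F letters occurred upstream of any prosurvival start site, as 1 match before another of the 3 Bcl2l1 start sites, within an annotated exon. Among the BH3-only genes, a start site of Bcl2l11 had 3 GC boxes, 1 CCAAT and 1 forkhead match. The Bad and Bid start sites richest in GC boxes had 3 each, and the 3 start sites of Bmf had 3, 1 and no CCAAT matches. The second Bcl2l11 start site had 2 GC boxes and 2 CCAAT matches. The Bak1 stretch, which lies wholly within an annotated exon, had no match of any searched motif. A match is a description of letters, not evidence that a factor binds.

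Levels of different genes were compared as CPM per kilobase of annotated exon. Mcl1, a short-lived prosurvival protein, had the highest level of the 10 genes in every group, from a mean of 95.3 ± 7.60 (SD, n = 3) in subcutaneous TMPC to 148 ± 60.3 in TM. Bak1, the membrane-resident effector, came next with means of 39.7 to 48.8. Its libraries overlapped with those of the gene ranked after it only in orthotopic TMPC, where that gene was Pmaip1. Bcl2, the founding prosurvival gene, was lowest in every group, at 6.53 ± 3.41 in TM, 1.42 ± 0.0625 in TMP, 1.68 ± 1.2 in subcutaneous TMPC and 2.54 ± 0.128 in orthotopic TMPC. Outside TM, Pmaip1 followed Bak1, at 25.6 ± 11.6 in TMP, 14.4 ± 7.13 in subcutaneous TMPC and 36.5 ± 6.97 in orthotopic TMPC. It did not overlap with the gene ranked after it, Bcl2l1, in TMP (11.7 ± 1.46) or orthotopic TMPC (14.8 ± 1.36). In TM the libraries of every neighbour from Pmaip1 down to Bcl2 overlapped, so their order there was not resolved.

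Within the summed CPM per kilobase of the 4 prosurvival genes, Mcl1 made up 75.5% to 85.4% of every library. The Bcl2 share was 2.72% to 4.10% in TM and 0.977% to 1.09% in TMP. In subcutaneous TMPC it was 2.82% in replicate 1 but 0.945% and 0.765% in the others, and it was 1.66% to 1.85% in orthotopic TMPC. Bcl2l1 accounted for 7.33% to 13.1% and Bcl2l2 for 3.85% to 9.30%. The plot of this make-up shows how little of the RNA of these 4 genes, per length of annotated exon, came from Bcl2 in any library. Other Bcl2 family genes were not part of the sum.

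**Figure D1:**
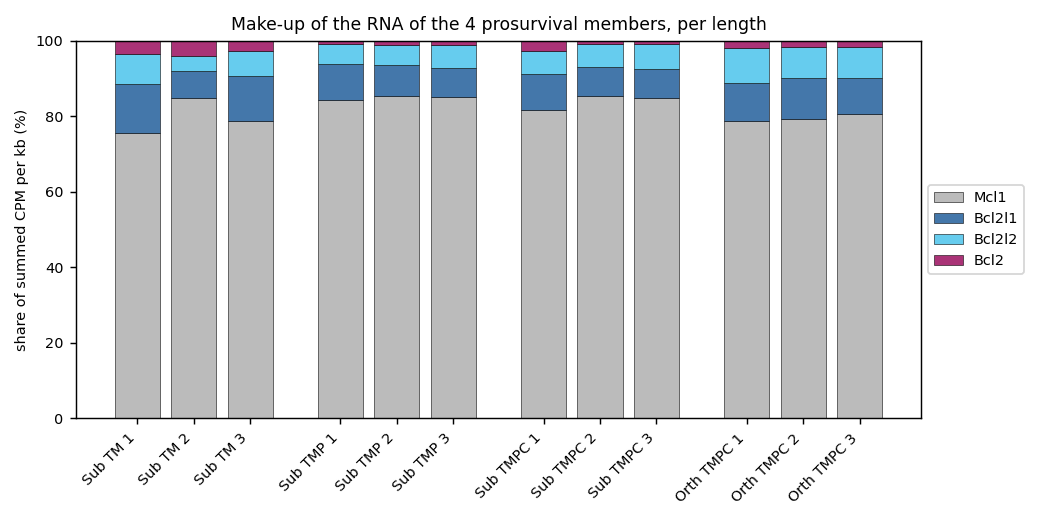
Share of the summed CPM per kilobase of the 4 prosurvival genes, in percent (y axis), in each of the 12 libraries (x axis, Sub for subcutaneous and Orth for orthotopic). Mcl1 fills 75.5% to 85.4% of each bar, and the Bcl2 segment at the top is 0.765% to 4.10%.

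Among the prosurvival genes, Bcl2 (chromosome 1, 106538178 to 106714274, mm10) stood at 43.0, 95.8 and 40.5 CPM in TM replicates 1 to 3. It stood at 12.7, 12.6 and 13.7 CPM in TMP. In subcutaneous TMPC it was 28.0, 9.52 and 8.56 CPM, and in orthotopic TMPC 22.5, 22.7 and 24.6 CPM. All TM libraries lay above all others, and subcutaneous TMPC replicate 1 lay above both of its partners and above the orthotopic libraries. Bcl2 fell by 2.27 ± 0.54 (SE) on the log2 scale from TM to TMP, a 4.81-fold lower level (adjusted p = 0.0195). From TM to TMPC it fell by 2.03 ± 0.53 (adjusted p = 0.0207). Without TM replicate 2 the differences were -1.71 (adjusted p = 0.0270) and -1.47 (adjusted p = 0.0365), so both calls held. The TMP call ended without TMP replicate 1, 2 or 3 (adjusted p = 0.0747, 0.0663 and 0.0644). The TMPC call ended without TMPC replicate 2 or 3 (adjusted p = 0.0748 and 0.0657) and, without TMPC replicate 1, the difference was -2.72 (adjusted p = 0.0058). It also ended when only TM and TMPC were fitted (-1.96, adjusted p = 0.0618).

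Between the sites of TMPC, the Bcl2 difference (orthotopic minus subcutaneous) was 0.67 ± 0.48 and did not pass (adjusted p = 0.322). The groups overlapped because of subcutaneous replicate 1. Without it the difference was 1.41 ± 0.22 (adjusted p = 0.0230), while without replicate 2 or 3 it was 0.35 and 0.37. That library had the lowest summed epithelial markers of its group, 1029 CPM against 2458 and 3431, and the highest macrophage markers, 1545 CPM against 832 and 1029. Its B and plasma cell and neutrophil markers lay between those of its partners. In the orthotopic libraries macrophage markers summed to 1686 to 2503 CPM. The part of these cells in the Bcl2 value was not tested.

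Lymphocytes and macrophages also express Bcl2 family genes, and their markers were higher in TM than in the other subcutaneous groups. T and NK cell markers (9 of 9 in the table) summed to 11.7, 261 and 15.7 CPM in TM, and to 0.481 to 5.32 CPM in the other groups, with Cd3d at 0 in TMP and Cd3e at 0 in subcutaneous TMPC. Macrophage and monocyte markers (9 of 9) summed to 3575 to 7113 CPM in TM, 758 to 1432 in TMP, 832 to 1545 in subcutaneous TMPC and 1686 to 2503 in orthotopic TMPC. B and plasma cell markers (7 of 7) summed to 14.4 and 15.4 CPM in TM replicates 1 and 3, and to 0.717 to 3.21 CPM in the 6 subcutaneous TMP and TMPC libraries. In orthotopic TMPC they summed to 13.5, 3.26 and 29.9 CPM, a range that includes TM replicates 1 and 3. Neutrophil markers (5 of 6) summed to 116, 3441 and 182 CPM in TM, 9.14 to 45.5 CPM in the subcutaneous TMP and TMPC libraries and 27.0, 27.9 and 801 CPM in orthotopic TMPC. Skeletal muscle markers (6 of 6) were low in TM, at 1.88 to 3.38 CPM with Ckm at 0, and summed to 11.2, 196 and 2.99 CPM in TMP and 26.1, 213 and 130 CPM in subcutaneous TMPC. Cell cycle genes were also lower in TM, at 384 to 484 CPM in TM and 569 to 958 in orthotopic TMPC against 1572 to 2298 in the subcutaneous TMP and TMPC libraries. The part of these cells and states in the Bcl2 differences was not tested. The fits without TM replicate 2 do not test it, as TM replicates 1 and 3 also held macrophage markers at 3761 and 3575 CPM.

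**Figure D2:**
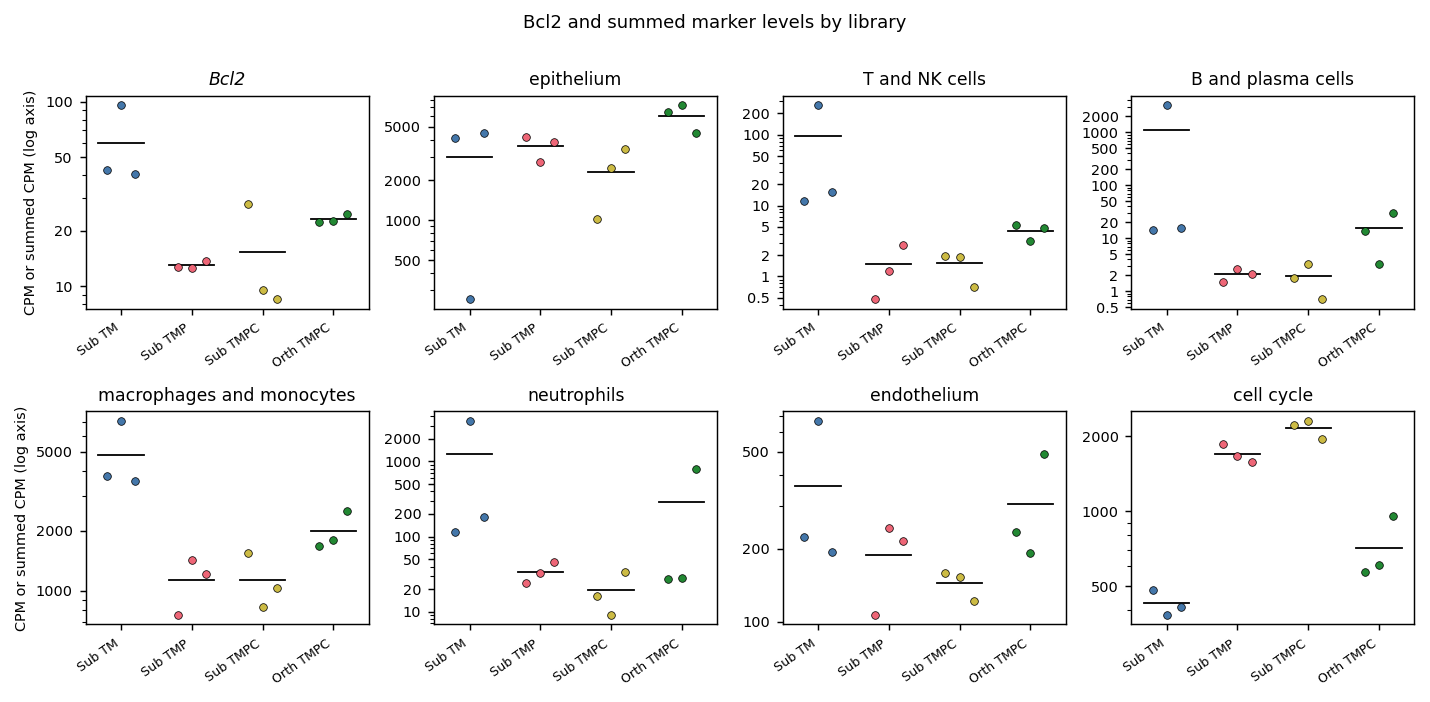
Bcl2 level (first panel, CPM) and summed CPM of 7 marker lists by library (log y axes) in the 4 groups on the x axis; points are replicates 1 to 3 from left and bars are means. Bcl2 is highest in TM, where TM replicate 2 reaches 3246 CPM of B and plasma cell markers and only 257 CPM of epithelial markers.

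Bcl2l1, which encodes the prosurvival protein Bcl-xL (chromosome 2, 152780668 to 152831728), was lower in both TMP and subcutaneous TMPC than in TM. It stood at 80.0, 85.8 and 88.7 CPM in TM and at 61.0, 47.7 and 52.5 CPM in TMP. It stood at 47.6, 39.2 and 43.1 CPM in subcutaneous TMPC and at 60.8, 72.8 and 69.6 CPM in orthotopic TMPC. The 4 groups did not overlap except that TMP replicate 1 lay just above the lowest orthotopic library. Bcl2l1 fell by 0.71 ± 0.15 from TM to TMP (adjusted p = 0.0126) and by 1.03 ± 0.15 from TM to TMPC, a 2.05-fold lower level (adjusted p = 0.00228). The TMPC call held in all 9 fits that left out a library, with differences of -1.05 to -0.89. The TMP call ended without TMP replicate 2 (-0.60, adjusted p = 0.0595) or replicate 3 (-0.68, adjusted p = 0.0550). TM replicate 2, which stood apart in its cell markers, was level with its partners for this gene.

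Orthotopic TMPC tumours had 1.64 times the Bcl2l1 level of subcutaneous ones, a rise of 0.71 ± 0.15 (adjusted p = 0.0193). This call ended without subcutaneous replicate 2 (adjusted p = 0.0778) or 3 (0.0577) and without orthotopic replicate 1 (0.0503) or 2 (0.0778), with differences of 0.58 to 0.78. The comparison of TMPC with TM uses the same 3 subcutaneous TMPC libraries, so the fall and the rise are not independent of each other. Orthotopic libraries lay below all TM libraries.

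Bcl2l2, which encodes Bcl-w (chromosome 14, 54883377 to 54888234), stood at 47.5, 43.8 and 48.9 CPM in TM and 33.6, 30.1 and 40.2 CPM in TMP. It stood at 29.2, 29.7 and 37.0 CPM in subcutaneous TMPC and at 55.1, 51.9 and 60.2 CPM in orthotopic TMPC. The orthotopic libraries were the highest of the 12, and both TMP and subcutaneous TMPC lay wholly below TM. The difference from TM was -0.49 ± 0.17 in TMP (adjusted p = 0.0637, not passed, although DESeq2 called it at 0.0179) and Bcl2l2 fell by 0.61 ± 0.17 in TMPC (adjusted p = 0.0258). That TMPC call held in 3 of 9 fits without a library, with differences of -0.70 to -0.49. It ended without TM replicate 1 (adjusted p = 0.0915) or 3 (0.0753), TMP replicate 1 (0.0645) or 2 (0.0534), and TMPC replicate 1 (0.0960) or 2 (0.125). It also ended with no filter on low counts (0.0556) and with only TM and TMPC fitted (0.0716). Bcl2l2 shares 594 exon bases with the same-strand gene Gm20521, which has no entry of that name among the counts. How reads over these bases were counted is not given.

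The site difference of Bcl2l2 was larger, a rise of 0.87 ± 0.17 in orthotopic TMPC, 1.82 times the subcutaneous level (adjusted p = 0.0168). It ended without subcutaneous replicate 2 (adjusted p = 0.0640) or without orthotopic replicate 1 (0.0573) or 2 (0.0578), with differences of 0.75 to 0.98. Epithelial markers (8 of 8) summed to 4470 to 7269 CPM in orthotopic TMPC and to 1029 to 3431 CPM in subcutaneous TMPC. Fibroblast markers (7 of 7) summed to 6488 to 18791 CPM against 3637 to 5588 CPM, and endothelial markers (6 of 6) to 192 to 487 CPM against 122 to 159 CPM. Skeletal muscle markers ran the other way, at 3.30 to 7.58 CPM in orthotopic and 26.1 to 213 CPM in subcutaneous TMPC. The part of these tissues in the Bcl2l1 and Bcl2l2 site differences was not tested.

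Mcl1 (chromosome 3, 95658788 to 95663176) stood at 345, 739 and 438 CPM in TM and 409, 370 and 425 CPM in TMP. It stood at 303, 321 and 354 CPM in subcutaneous TMPC and 358, 392 and 447 CPM in orthotopic TMPC. TM replicate 2 was the highest library and subcutaneous TMPC was the lowest group. No Mcl1 difference passed: it was -0.40 ± 0.27 in TMP against TM (adjusted p = 0.292), -0.71 ± 0.28 in TMPC against TM (0.0749) and 0.36 ± 0.15 between the sites (0.122). Without TM replicate 2 the first of these was 0.00 and the second -0.29 (adjusted p = 0.170), while without TM replicate 1 the second was -0.84 and passed (0.0277). With library totals as the only scaling, the second (-0.67, adjusted p = 0.0372) and the site difference (0.43, 0.0440) passed, and the second also passed with all 12 libraries in the fit (-0.63, 0.0498).

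**Figure D3:**
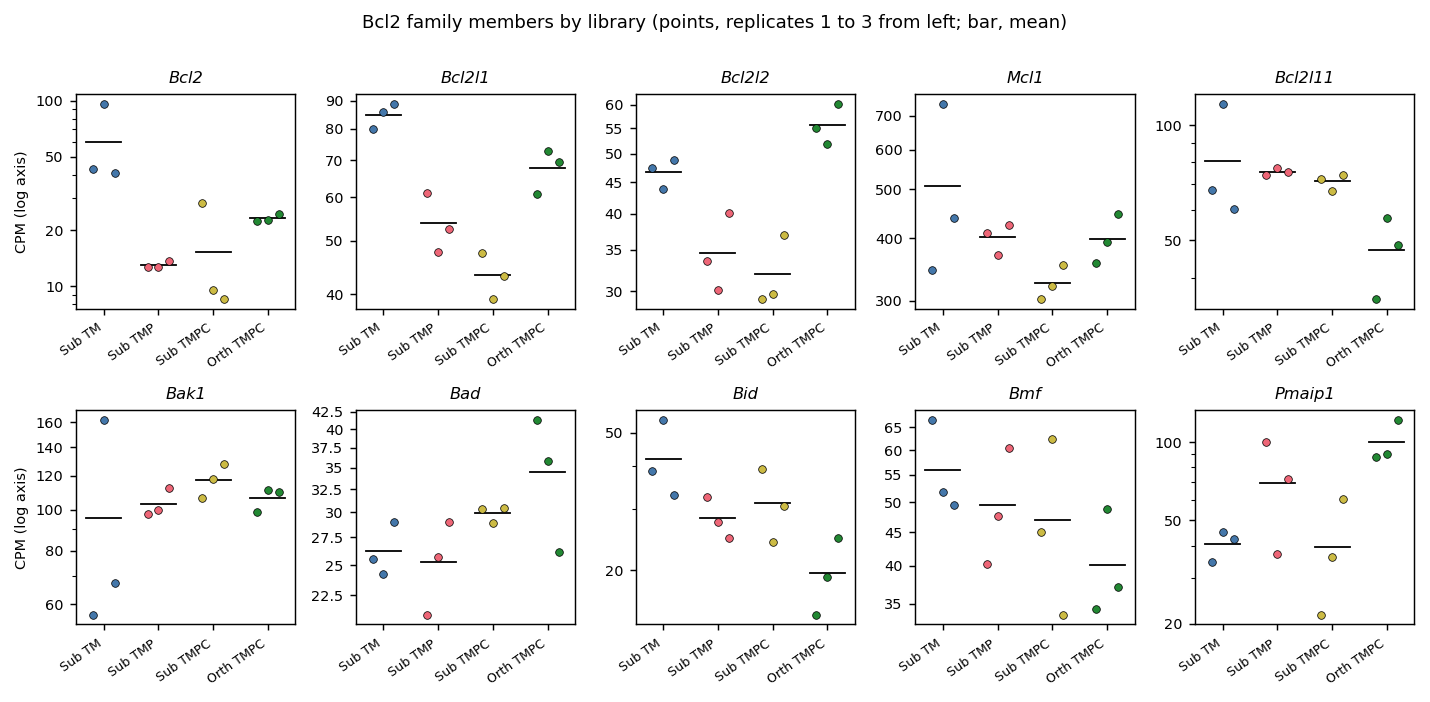
CPM (log y axes) of the 10 Bcl2 family genes in the 4 groups on the x axis; points are replicates 1 to 3 from left and bars are means. Bcl2, Bcl2l1 and Bcl2l2 sit highest in TM among the subcutaneous groups, and Pmaip1 sits highest in orthotopic TMPC apart from TMP replicate 1 at 100 CPM.

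The effector Bak1 (chromosome 17, 27019810 to 27029009) stood at 56.8, 162 and 67.5 CPM in TM and 97.6, 99.8 and 112 CPM in TMP. It stood at 107, 118 and 128 CPM in subcutaneous TMPC and 98.5, 111 and 110 CPM in orthotopic TMPC. TM replicates 1 and 3 were the lowest libraries of the 12 and TM replicate 2 the highest. Bak1 did not pass in TMP against TM (0.05 ± 0.37, adjusted p = 0.937) or in TMPC against TM (0.22 ± 0.37, adjusted p = 0.659). Without TM replicate 2 both passed, at 0.70 ± 0.15 (adjusted p = 0.0112) and 0.89 ± 0.15 (adjusted p = 0.00309), so this library decides the Bak1 call. Bak1 did not pass between the sites (-0.07 ± 0.13, adjusted p = 0.697). It shares 614 exon bases with the opposite-strand gene Ggnbp1, and the use of strand in counting is not given.

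Of the BH3-only genes, Pmaip1, which encodes Noxa, an antagonist of Mcl1, was the only one called in any comparison. It stood at 34.5, 45.2 and 42.3 CPM in TM and at 100, 37.2 and 72.1 CPM in TMP. It stood at 21.7, 36.1 and 60.2 CPM in subcutaneous TMPC and 87.8, 89.9 and 122 CPM in orthotopic TMPC. Every orthotopic library lay above every subcutaneous TMPC library. Pmaip1 was 2.65 times higher in orthotopic TMPC, a rise of 1.40 ± 0.38 (adjusted p = 0.0384). The call held only without subcutaneous replicate 3 (1.84, adjusted p = 0.0352), and ended without subcutaneous replicate 1 (1.10, 0.0513) or 2 (1.28, 0.121) or orthotopic replicate 1 (0.0842), 2 (0.0843) or 3 (1.23, 0.0719). The other differences were 0.72 ± 0.43 in TMP against TM (adjusted p = 0.237) and -0.11 ± 0.43 in TMPC against TM (0.858). The TMP libraries alone spanned 37.2 to 100 CPM, the widest range of the gene within a group in CPM. On the log scale the widest range was that of subcutaneous TMPC, from 21.7 to 60.2 CPM.

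Bcl2l11, which encodes Bim, a binder of all prosurvival members (chromosome 2, 128126038 to 128162547), stood at 67.6, 113 and 60.4 CPM in TM and 73.9, 77.3 and 75.4 CPM in TMP. It stood at 72.4, 67.2 and 74.2 CPM in subcutaneous TMPC and at 35.2, 57.4 and 48.7 CPM in orthotopic TMPC. The orthotopic libraries were the lowest of the 12 and did not overlap with any subcutaneous one. The site difference of -0.53 ± 0.20 did not pass (adjusted p = 0.0849), and neither did the differences from TM (-0.15 and -0.25, adjusted p = 0.651 and 0.444).

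Bid, cleaved by caspase 8 to link death receptors to mitochondria (chromosome 6, 120891930 to 120916853), stood at 38.7, 54.4 and 33.1 CPM in TM and 32.5, 27.6 and 24.8 CPM in TMP. It stood at 39.4, 24.2 and 30.6 CPM in subcutaneous TMPC and 14.9, 19.2 and 24.8 CPM in orthotopic TMPC. Each TMP library lay below each TM library, yet the difference of -0.63 ± 0.26 did not pass (adjusted p = 0.104). The site difference was -0.61 ± 0.28 (adjusted p = 0.137), with 1 orthotopic library above the lowest subcutaneous one. Bid shares 628 exon bases with the opposite-strand gene Bcl2l13, so reads of the pair may be mixed if strand was not used.

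Bad, a BH3-only protein held inactive by survival kinases (chromosome 19, 6941861 to 6951899), ranged over only 21.1 to 41.3 CPM in the 12 libraries. Its differences were -0.11 ± 0.17 in TMP and 0.13 ± 0.17 in TMPC against TM, and 0.27 ± 0.21 between the sites. Bmf, which responds to loss of attachment (chromosome 2, 118528757 to 118549687), ranged over 33.7 to 66.8 CPM, with differences of -0.23 ± 0.26, -0.32 ± 0.26 and -0.16 ± 0.26. Neither gene passed in any comparison, and the groups of both overlapped in all of them. Bad shares 524 exon bases with the opposite-strand gene Gpr137, and Bcl2 shares 558 with D630008O14Rik.

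In TMP against TM, 2 of the 10 genes were called, Bcl2 and Bcl2l1, both lower, where 27.7% of all genes tested were called and 13.4% were called lower. In 4 of 10 the libraries of the groups did not overlap, against 50.6% of all genes. The median difference over the 10 genes was -0.32, against -0.07 over all genes. The share called, 2 of 10, was near the background of this comparison. Without TM replicate 2 the count was 3, Bak1 being the addition, without TMP replicate 1 it was 1, and without TMP replicate 2 or 3 it was 0.

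In TMPC against TM, 3 of 10 were called, Bcl2, Bcl2l1 and Bcl2l2, all lower, where 35.8% of all genes were called and 17.8% were called lower. The groups did not overlap in 3 of 10, against 47.5% of all genes, and the median was -0.40 against -0.07. The count was 4 without TM replicate 2, 1 without TMPC replicate 2 and 1 with only the TM and TMPC groups fitted. Between the tumour types TMPC and TMP none of the 10 was called by edgeR, and none of 15277 genes was (0.0%), while 465 had an unadjusted p under 0.05. DESeq2 called 16 genes (0.0984%), none of them among the 10. The Bcl2l1 and Mcl1 libraries did not overlap between these groups, 2 of 10 against 12.5% of all genes, with differences of -0.32 ± 0.15 and -0.31 ± 0.27. For Bcl2 the difference was 0.24 ± 0.52, and without TMPC replicate 1 it was -0.52 ± 0.37. For Pmaip1 it was -0.83 ± 0.43.

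In orthotopic against subcutaneous TMPC, 3 of 10 were called, Bcl2l1, Bcl2l2 and Pmaip1, all higher, where 27.8% of all genes were called and 14.0% were called higher. The groups did not overlap in 5 of 10, against 48.8% of all genes, and the median was 0.31 against 0.05. The share called in either direction was near the background. The count was 0 without subcutaneous replicate 2 or orthotopic replicate 1 or 2. Without orthotopic replicate 3, the library with liver markers at 7425 CPM, it was 2. The comparison of TMPC with TM and that between the sites share the subcutaneous TMPC libraries, and both comparisons with TM share the TM libraries. Their values are therefore set side by side in the plot of fold changes and not counted as separate evidence.

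**Figure D4:**
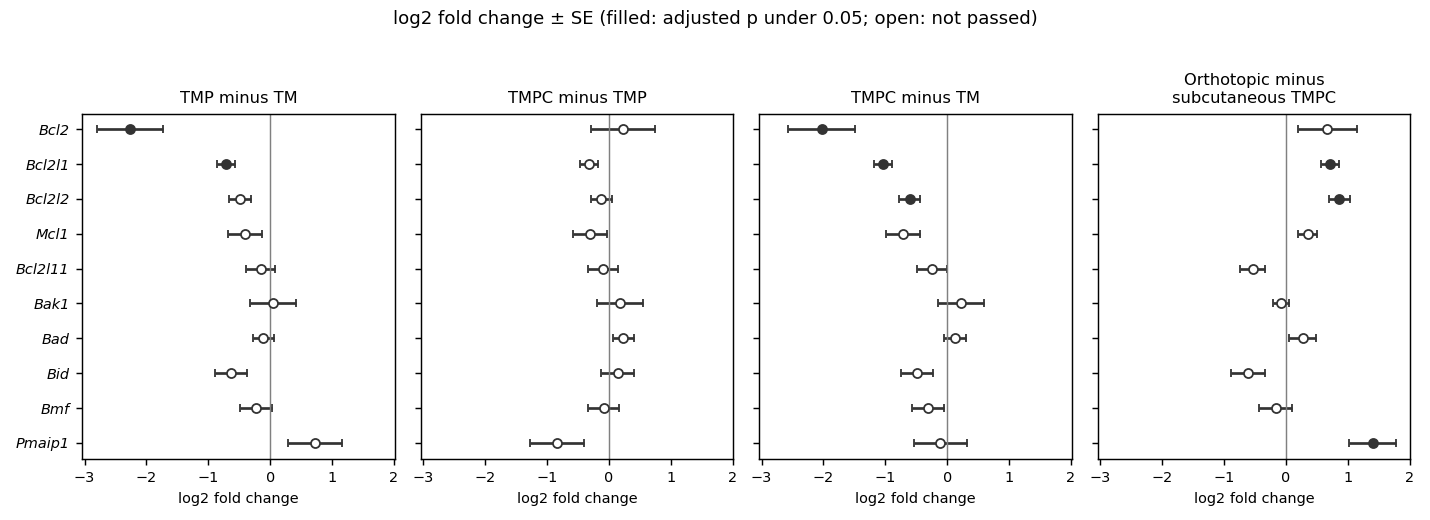
log2 fold change ± SE (x axes) of the 10 genes (y axis) in the 4 comparisons, with filled points for an adjusted p under 0.05 and open points for the rest. Bcl2 and Bcl2l1 are filled and left of 0 in both comparisons with TM, and Bcl2l1, Bcl2l2 and Pmaip1 are filled and right of 0 between the sites.

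Other genes of the pathway were counted from lists of related genes, to be read against the 27.7%, 35.8% and 27.8% of all genes called in TMP against TM, TMPC against TM and between the sites. Of 14 other Bcl2 family genes tested, 4 were higher and 4 lower in TMP against TM, 3 and 4 in TMPC against TM, and 4 and 1 in orthotopic against subcutaneous TMPC. The effector Bax rose by 0.61 ± 0.16 in TMP (adjusted p = 0.0287) and by 0.71 ± 0.16 in TMPC against TM (0.0131). Its TMP call ended without TM replicate 3 (0.64, adjusted p = 0.0565) and without TMP replicate 1 (0.60, 0.0706) or 3 (0.59, 0.0882), while its TMPC call held in all 9 fits without a library. It did not pass between the sites (-0.49 ± 0.16, adjusted p = 0.0668). Bok, an effector-like member, rose by 1.47 ± 0.43 and 1.39 ± 0.43 against TM (adjusted p = 0.0368 and 0.0354). The TMP call held without TM replicate 2 or 3 and without TMPC replicate 3, the TMPC call held without TM replicate 2 or 3, and both ended without any other library. Bbc3, which encodes Puma, passed in none of the comparisons (0.19, -0.04 and -0.24). Bcl2l14, a further family member, fell by 2.95 ± 0.37 and by 4.26 ± 0.39 against TM and rose by 4.55 ± 0.56 between the sites. Its levels were 7.86 to 11.9 CPM in TM, 0.410 to 1.42 CPM in the subcutaneous TMP and TMPC libraries and 5.48 to 15.5 CPM in orthotopic TMPC. Both its calls against TM and the site call held in every fit without a library.

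Of 11 apoptosome and caspase genes, 3 were higher and 0 lower in both comparisons with TM, and 1 was higher (Casp6) and 1 lower between the sites. These shares were near or below those over all genes. The initiator caspase gene Casp9 and the apoptosome scaffold gene Apaf1 passed in none of the comparisons. Aifm1, a mitochondrial flavoprotein gene, stood at 43.2 to 51.2 CPM in TM, 78.8 to 84.6 CPM in TMP, 84.2 to 115 CPM in subcutaneous TMPC and 56.7 to 63.7 CPM in orthotopic TMPC. It rose by 0.75 ± 0.16 in TMP and 0.97 ± 0.16 in TMPC against TM (adjusted p = 0.0134 and 0.00367), and both calls held in every fit without a library. It fell by 0.59 ± 0.16 between the sites (adjusted p = 0.0387), a call that ended without any 1 of the 6 libraries, at differences of -0.71 to -0.46. Of 7 genes listed as caspase inhibitors, 1 was higher (Birc5) and 3 lower (Naip2, Naip5 and Birc3) in both comparisons with TM. Between the sites the same 3 were higher and Birc5 was lower. Macrophage markers moved in the same direction as these 3 genes, and their part in these calls was not tested. The list name is only a label, and caspase inhibition was not measured. Birc5, which encodes survivin and is also a mitotic gene, rose by 1.83 ± 0.17 in TMP and 2.18 ± 0.17 in TMPC, as the cell cycle markers did, and their part in it was not tested.

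Of the death receptor genes, 2 of 12 were lower in TMP and 4 of 12 in TMPC against TM, and 4 of 11 were higher between the sites, with none called the other way. Over all genes, 13.4% and 17.8% were lower in these comparisons with TM and 14.0% were higher between the sites, so the TMP share was near the background. Of 4 outer membrane channel genes, 2 were higher in both comparisons with TM and 1 was lower between the sites. Of 16 regulators of family members, 4 were higher and 1 lower in TMP, 7 and 1 in TMPC, and 1 and 3 between the sites. The transcription factor E2f1 rose by 1.36 ± 0.21 in TMP and 1.65 ± 0.21 in TMPC. Trp53, which encodes p53, a transcriptional activator of Bax and Pmaip1, rose by 0.73 ± 0.24 in TMPC against TM (adjusted p = 0.0438) and did not pass in TMP (0.53 ± 0.24, adjusted p = 0.124). Its call ended without TM replicate 1 or 3, TMP replicate 3, or TMPC replicate 2 or 3, at differences of 0.64 to 0.75. Between the sites Trp53 was not called, and it differed by -0.91 to -0.61 in the fits without a library. None of the genes of these 6 lists was called between TMPC and TMP. The plot of genes called both against TM and between the sites shows 15 of them by library, chosen for those calls.

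**Figure D5:**
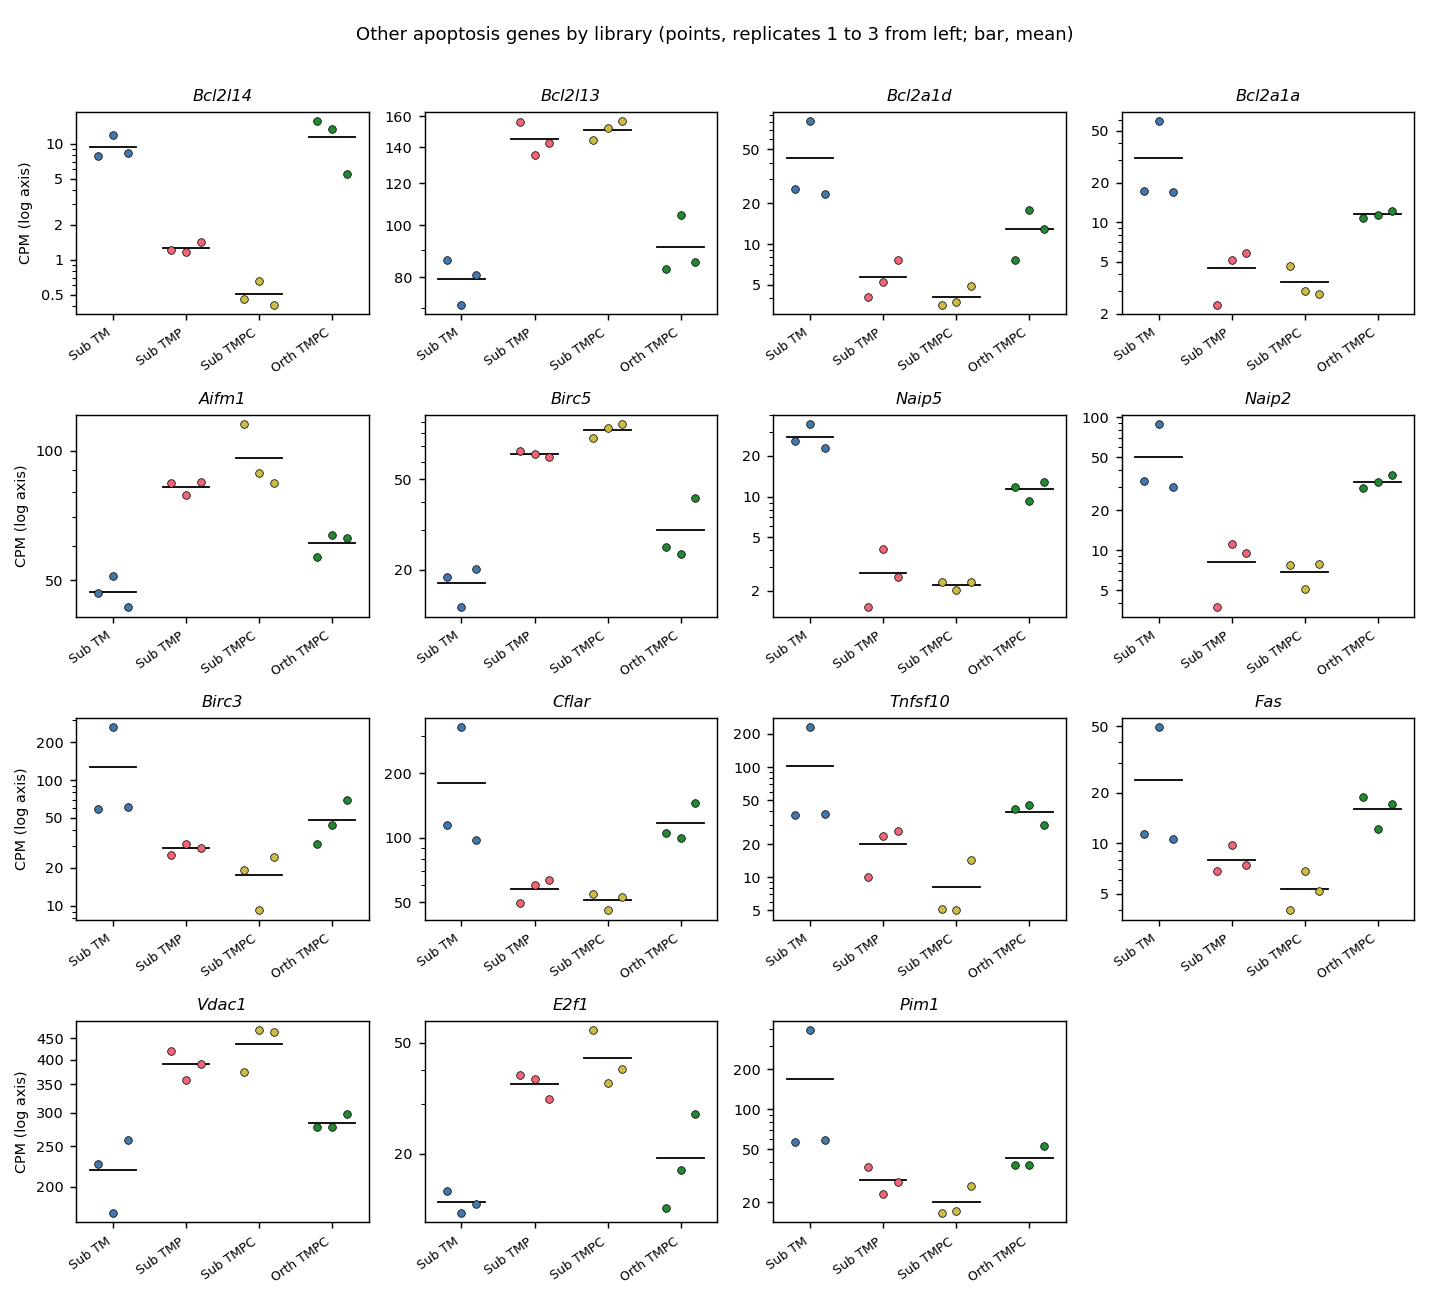
CPM (log y axes) of 15 other apoptosis genes called in both TMPC against TM and orthotopic against subcutaneous TMPC, in the 4 groups on the x axis; points are replicates 1 to 3 from left and bars are means. Bcl2l14, for example, lies at 0.410 to 1.42 CPM in the subcutaneous TMP and TMPC libraries and at or above 5.48 CPM in the others.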

How the data were processed

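Polyadenylated RNA was sequenced with paired reads of 150 bp. The submitters' processing notes name STAR 2.6.0, mm10 and DESeq2. The read counter, annotation and strand use are not given in these sources. The authors deposited whole-number counts per gene and, per the file headers, a normalized signal, which is each count over a size factor and served only as a check. In the subcutaneous table the symbols are out of step with the counts for 12131 of 24421 entries, Mcl1 and Pmaip1 among them. Each entry took the symbol at its position in the other table, after which counts matched the signal within 0.01 reads for 24419 of 24419 entries, against 14200 as deposited. Replicate libraries differed beyond sampling noise (chi-square per degree of freedom 28.4 to 429), so none looked like 1 library deposited again, which does not show that they came from separate tumours. At these depths 3 counts are 0.142 to 0.181 CPM.

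Counts were tested with edgeR's quasi-likelihood test (edgeR 4.0.16, R 4.3.3) with TMM factors, filterByExpr and Benjamini-Hochberg adjustment over all genes tested, with calls made at 0.05. One fit held the 9 subcutaneous libraries and another the 6 TMPC libraries. The standard error is the log2 fold change divided by the square root of F. The steps were tested on simulated data. Exact permutation of 3 against 3 libraries was not used, its smallest two-sided p being 0.1. Alternatives were DESeq2 1.42.0, other scalings, no filter, other sets of libraries, a replicate block and leaving out each library. The members, gene lists and tests were chosen with earlier results of these data known. Named genes are all members and, of the other lists, genes drawn from up to 4 called genes per list and comparison with the smallest adjusted p and from genes chosen by name. Some listed genes are not reported here. Gene positions and exon lengths are from GENCODE on mm10. Upstream sequences are from RefSeq on GRCm38.p6 and were searched for 9 members, with Pmaip1 left out. Bases past the start site were found in a GENCODE transcript of the gene for all of these except Mcl1. The 2 single-cell samples were not analysed here.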

Additional observations from a re-analysis of the deposited data

How the results depend on the processing

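The 8 calls of members held in 38 of 63 fits without a library and ended in 25, with 13 of 18 held in TMP against TM, 19 of 27 in TMPC against TM and 6 of 18 between the sites. Under the other settings 262 of 270 differences of members, called or not, kept direction and call. With a library left out, members called ranged from 0 to 3 in TMP against TM, 1 to 4 in TMPC against TM and 0 to 3 between the sites, and all genes called from 1550 to 4885, 3414 to 6390 and 387 to 4789. With only 2 groups fitted, TMPC against TM called 1 member and 3536 genes. DESeq2 called 16 genes in TMPC against TMP and 6371 between the sites. The cause of these differences was not tested.

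Replicate numbers were not treated as pairs. Over genes, the deviations of same-numbered libraries from their group means correlated at -0.23 to 0.27. Each comparison had some pairs below 0.1, the value set for pairing. With so few libraries per group, these correlations cannot show whether the samples were paired. The fit with a replicate block called 2, 0, 3 and 2 members and 3032, 0, 4295 and 1777 genes in TMP against TM, TMPC against TMP, TMPC against TM and between the sites. Between the sites Bcl2l1 no longer passed (0.71, adjusted p = 0.0691).

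Direction turned in some fits without a library, and no turned value passed. In TMP against TM the ranges were -0.56 to 0.0045 for Mcl1, -0.32 to 0.21 for Bcl2l11, -0.15 to 0.70 for Bak1 and -0.21 to 0.042 for Bad. In TMPC against TMP they were -0.52 to 0.53 for Bcl2, -0.23 to 0.0074 for Bcl2l2, -0.038 to 0.34 for Bid, -0.30 to 0.12 for Bmf, -0.29 to 0.093 for Bok and -0.057 to 0.15 for Casp9. In TMPC against TM they were -0.40 to 0.13 for Bcl2l11, -0.53 to 0.24 for Pmaip1 and -0.085 to 0.15 for Bbc3, which was also 0.019 with no filter, 3.8e-05 with only 2 groups and 0.015 with all 12 libraries. Between the sites they were -0.37 to 0.025 for Bmf and -0.035 to 0.23 for Apaf1. Alternatives for genes outside the 10 were chosen after seeing the data.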
